A study of Rattus norvegicus with 12 samples.

Results

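The genes described here encode the subunits of the mitochondrial respiratory chain and of ATP synthase. They were chosen by name: every gene that a probe set of the rat array RAE 230A names alone and whose symbol begins with Nduf, Sdha to Sdhd, Uqcr, Cox4 to Cox8 or Atp5, with Cox8b left out. This gave 87 of the 10411 genes so named, each represented by the probe set with the highest mean log2 signal. By symbol, 41 fell to complex I, 8 to complex II, 7 to complex III, 15 to complex IV and 16 to complex V. The prefixes also caught 9 assembly factors (5 Ndufaf and 4 Sdhaf genes), the ATP synthase inhibitor Atp5if1, the supercomplex factor Cox7a2l and the pseudogene Cox6c-ps1. None of the genes so named is encoded in mitochondrial DNA, so the values concern subunits encoded in the nucleus.

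The samples were lungs of 12 male rats of the Wistar strain, each on an array of its own. The diabetic group held 7 rats that received streptozotocin, a toxin of the insulin-producing beta cells, into the abdominal cavity at 8 weeks of age and had diabetes for 4 weeks. The normal group held 5 rats that received the buffer alone at the same age, and all animals were 12 weeks old and had fasted overnight when both lungs were removed. Each array therefore holds the RNA of whole lung, with all its cell types, from an animal with a chemical lesion of the pancreas and not a genetic or autoimmune diabetes.

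The respiratory chain is a set of protein complexes in the inner membrane of mitochondria. Complex I takes electrons from NADH and complex II takes them from succinate, both hand them to ubiquinone, and complex III passes them through cytochrome c to complex IV, which reduces oxygen to water. Complexes I, III and IV pump protons, and ATP synthase (complex V) lets the protons return and makes ATP. In the lung the alveolar type II cell, which makes surfactant, is rich in mitochondria.

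The stretch before the start of the gene is shown for Ndufa4l2, which had the largest change, and for Ndufs8, Ndufs6, Ndufaf4 and Cox8a as examples of members whose stretch holds a word, since many nuclear genes of the chain are known to share short words that bind NRF1 (GCGCANGCG), the GABP factor of the ETS family (CCGGAAG) or YY1 (AAGATGGCG). RefSeq promoters of the build GRCr8, 250 bases before and 50 bases after the start, were matched for 79 of the 87 members. On either strand the NRF1 word stood in 21 of these 79 (26.6%), against 6.26% of all 27457 promoters of the table. The GABP word stood in 24 (30.4%), against 9.22% of all promoters, and the YY1 word in 11 (13.9%), against 1.93%. The NRF1 and YY1 words are shortened forms, chosen after longer forms had been counted, and the shortening raised their shares both in the members and in all promoters. The ERR alpha word TCAAGGTCA was in 2 members (2.53%, against 0.412% of all), and ACGTG, the core of the word bound by hypoxia-inducible factors, in 20 (25.3%, against 19.7%). Of the 10 members described as lower in what follows, 2 had the NRF1 word, 3 the GABP word and 2 the YY1 word, and Ndufb3, Ndufa9 and Ndufv2 held neither the NRF1 nor the GABP word. A word in a promoter is a description of its letters, and whether a factor binds there was not measured. Capitals mark the NRF1 and GABP words, and no other word, in the 250 bases before the start, written 5′ to 3′ on the strand of the gene. They come from chr7:65241919-65242168 (plus strand, Ndufa4l2), chr1:210573699-210573948 (minus strand, Ndufs8), chr1:31797150-31797399 (plus strand, Ndufs6), chr5:43401545-43401794 (plus strand, Ndufaf4) and chr1:213833624-213833873 (minus strand, Cox8a). Ndufs8 and Cox8a show the GABP word on the opposite strand (CTTCCGG), Ndufs6 shows the NRF1 word on the opposite strand, Ndufaf4 shows it on both strands in overlap, and Ndufa4l2 holds neither word in this window.
Ndufa4l2: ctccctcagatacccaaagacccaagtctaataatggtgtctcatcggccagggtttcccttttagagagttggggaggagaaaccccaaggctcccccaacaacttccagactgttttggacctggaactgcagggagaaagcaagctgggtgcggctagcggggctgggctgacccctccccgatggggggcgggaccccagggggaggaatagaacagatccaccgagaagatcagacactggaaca
Ndufs8: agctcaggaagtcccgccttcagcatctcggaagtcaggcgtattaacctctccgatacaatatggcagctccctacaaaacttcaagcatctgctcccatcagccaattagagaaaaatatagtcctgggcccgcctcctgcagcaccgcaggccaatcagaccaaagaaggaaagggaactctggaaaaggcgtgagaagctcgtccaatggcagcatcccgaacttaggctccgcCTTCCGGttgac
Ndufs6: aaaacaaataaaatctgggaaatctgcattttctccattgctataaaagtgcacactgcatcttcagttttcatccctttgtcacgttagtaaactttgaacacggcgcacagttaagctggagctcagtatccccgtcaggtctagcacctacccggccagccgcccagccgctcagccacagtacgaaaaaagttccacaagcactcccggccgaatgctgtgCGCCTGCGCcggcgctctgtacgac
Ndufaf4: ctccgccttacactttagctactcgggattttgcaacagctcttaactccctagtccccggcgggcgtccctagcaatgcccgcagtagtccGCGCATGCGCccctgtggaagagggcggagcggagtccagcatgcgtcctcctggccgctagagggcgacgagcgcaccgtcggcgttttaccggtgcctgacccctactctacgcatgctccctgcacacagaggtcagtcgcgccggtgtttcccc
Cox8a: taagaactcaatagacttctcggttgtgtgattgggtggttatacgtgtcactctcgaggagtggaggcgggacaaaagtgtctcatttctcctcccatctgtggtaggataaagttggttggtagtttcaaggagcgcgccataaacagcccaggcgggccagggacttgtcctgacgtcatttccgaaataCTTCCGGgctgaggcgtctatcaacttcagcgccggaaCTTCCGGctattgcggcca

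In diabetic lung most genes of the chain had a slightly lower signal than in normal lung, and none of them passed the adjusted threshold. The lower members at an unadjusted p under 0.05 were mostly genes counted to complex I by symbol (Ndufa4l2, Ndufb3, Ndufa9 and Ndufv2 among them). The others were Cox8a of complex IV and Atp5f1c and Atp5f1d of ATP synthase, and the higher members were the assembly factors Ndufaf4 and Sdhaf2. Of the 87 genes, 83 passed the filter on low signals, which left out the probe sets with the lowest 40% of mean log2 signals (under a signal of 170.0). The 4 left out were Sdhaf3, Cox6a2, Cox6b2 and Cox6c-ps1. Signals are intensities on a linear scale, and a change is the log2 signal of diabetic minus that of normal lung in limma, a linear model with a moderated error, adjusted by Benjamini and Hochberg over all 9520 probe sets tested. None of the 83 members passed an adjusted p of 0.05, against 14 of all 7036 genes tested (0.199%). An unequal-variance test on untransformed signals also called none. At an unadjusted p under 0.05 from limma, 10 members were lower in diabetic lung (12.0%, against 9.11% of all genes) and 2 were higher (2.41%, against 7.48% of all genes). The share of lower members was thus close to that of all genes, while 64 of the 83 members (77.1%) had a change below 0, against 53.9% of all genes. The median change was -0.08 over the members and -0.01 over all genes tested.

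The shifts were small. For 81 of the 83 members the 95% interval of the change lay within 1.5-fold in either direction, as it did for 88.8% of all genes, and the exceptions were Ndufa4l2 and Sdhaf2. Within a group the median coefficient of variation over the members was 9.53% in diabetic and 8.71% in normal lung. In whole lung, fewer cells of a type and less RNA per cell cannot be told apart.

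**Figure D1:**
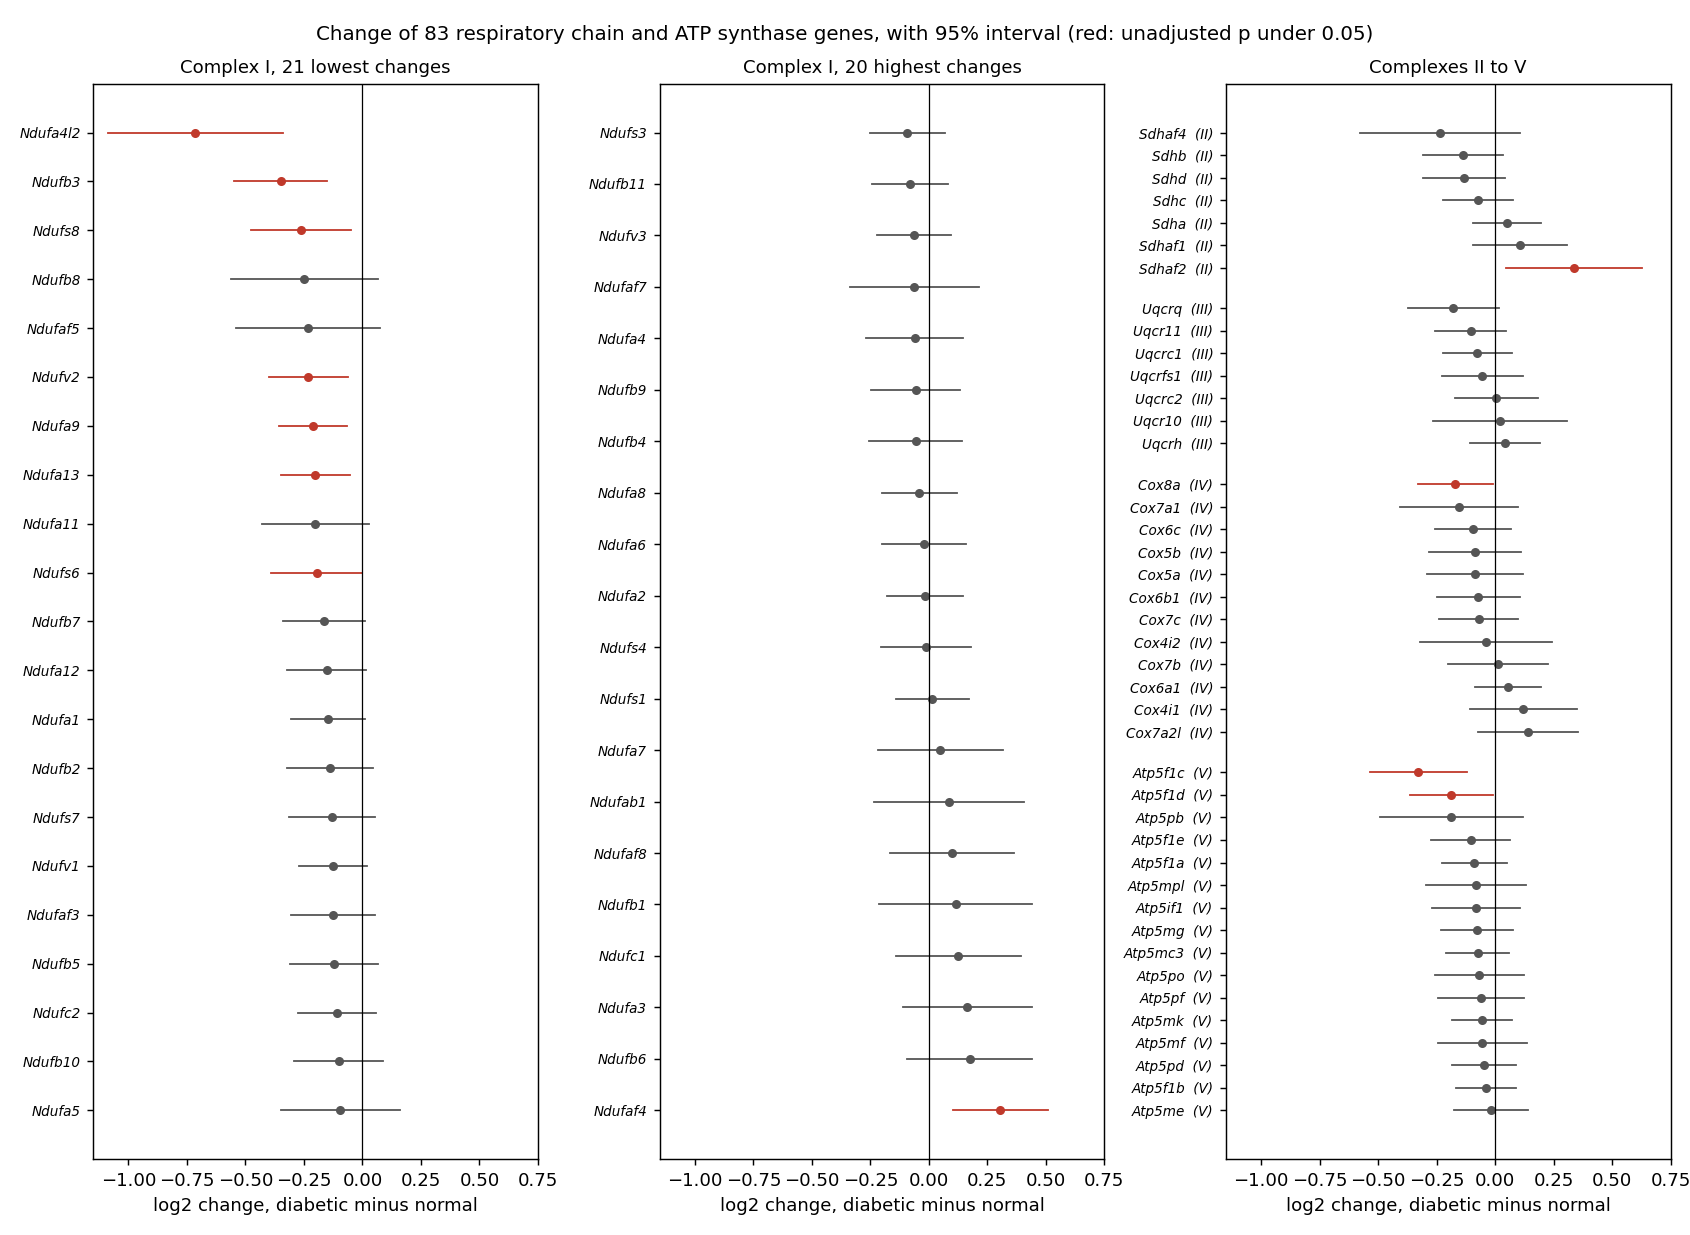
Change of each of the 83 members tested (log2 signal, diabetic minus normal, 7 and 5 animals) with its 95% interval; red marks an unadjusted p under 0.05 from limma. Most points lie slightly left of 0, all 16 complex V members do, and Ndufa4l2 lies farthest left at -0.71.

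Complex I held 7 of the 10 lower members and had a median change of -0.09, with 32 of 41 members below 0. Among its core subunits, which carry the flavin and the iron-sulphur clusters, 2 of 6 were lower at an unadjusted p under 0.05. Of the accessory subunits 4 of 28 were. Of Ndufa4 and its relative Ndufa4l2, counted to complex I by symbol alone, 1 was, Ndufa4l2. None of the 5 assembly factors was lower. Complex I members as a group were lower in 17.1% of cases, against 9.11% of all genes.

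Ndufa4l2 had the largest change of the 83 members tested. It encodes a relative of Ndufa4 that hypoxia-inducible factor induces and that limits complex I activity in mouse and human cells. Its signal was 146.8, 224.4 and 279.6 (lowest, median and highest) in the 7 diabetic animals, against 425.1, 364.9, 485.2, 369.3 and 236.5 in the 5 normal animals. Normal animals 1 to 4 lay above every diabetic animal and normal animal 5 lay among them. The mean was 227 ± 42.4 (SD, n = 7) in diabetic and 376 ± 92.1 (SD, n = 5) in normal lung, a change of -0.71 (SE 0.18, unadjusted p = 0.000979, adjusted p = 0.0793 in limma). With array weights the change was -0.75 and the adjusted p 0.0435, the single alternative that brought a member past the threshold. The signal is dim, and in diabetic animal 3 it was under the signal of the filter. Ndufa4 itself, which bears the name of complex I and is counted as a subunit of complex IV in mammals, averaged 1950 ± 258 (SD, n = 7) in diabetic and 2028 ± 221 (SD, n = 5) in normal lung (-0.06, 95% interval -0.27 to 0.15).

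Ndufb3, an accessory subunit of the membrane arm, ranged from 1680.9 to 2160.7 in diabetic lung (median 1742.6). The normal animals had 2767.3, 2119.3, 2024.2, 2303.2 and 2472.5. Diabetic animals 1 and 2 lay within the normal range and the other 5 below every normal animal. The change was -0.35 (SE 0.09, unadjusted p = 0.00185, adjusted p = 0.0975).

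Ndufa9, an accessory subunit where the peripheral arm meets the membrane arm, was the single member of which every diabetic animal lay below every normal animal, a pattern that 1.24% of all genes showed. Its signal was 837.3, 878.0 and 967.2 (lowest, median and highest) in diabetic lung, against 1095.3, 1039.2, 996.4, 1104.3 and 992.9 in the normal animals. The change was -0.21 (SE 0.07, unadjusted p = 0.00672, adjusted p = 0.148). With the GAPDH 3′ to 5′ ratio as a covariate it was -0.10.

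The 2 lower core subunits were Ndufv2, which carries an iron-sulphur cluster of the NADH-oxidizing module, and Ndufs8, which carries clusters close to the ubiquinone site. Ndufv2 had 1277.4, 1402.9 and 1720.2 (lowest, median and highest) in diabetic lung, against 1717.6, 1621.9, 1541.4, 1685.2 and 1857.0 in normal lung (-0.23, SE 0.08, unadjusted p = 0.0105, adjusted p = 0.180). Diabetic animal 1 alone lay within the normal range. Ndufs8 had 513.0, 660.5 and 772.1 in diabetic lung, against 881.2, 768.8, 761.0, 863.5 and 703.8 in normal lung (-0.26, SE 0.10, unadjusted p = 0.0186, adjusted p = 0.206). Diabetic animals 1, 2 and 7 lay within the normal range and the other 4 below it, and with the GAPDH ratio as a covariate the change was -0.40. The other core subunits were nearer 0: Ndufs7 at -0.13, Ndufv1, the flavin subunit, at -0.13, Ndufs3 at -0.09 and Ndufs1 at 0.01.

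The last lower members of complex I were Ndufa13 and Ndufs6. Ndufa13, also known as GRIM-19, averaged 1269 ± 73.9 (SD, n = 7) in diabetic and 1461 ± 110 (SD, n = 5) in normal lung (-0.20, unadjusted p = 0.0112, adjusted p = 0.183). All diabetic animals but animal 1 lay below the lowest normal animal, at 1330.4. Ndufs6, a zinc-binding subunit of the NADH-oxidizing module, averaged 1646 ± 156 in diabetic and 1890 ± 248 in normal lung (-0.20, unadjusted p = 0.0493, adjusted p = 0.303). Its groups overlapped, and its change was -0.04 with the GAPDH ratio as a covariate and -0.12 without normal animal 4.

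Ndufaf4, a factor that helps to assemble complex I and is not part of the finished enzyme, went the other way. It had 292.6, 330.5 and 417.5 (lowest, median and highest) in diabetic lung, against 292.4, 286.9, 282.5, 267.9 and 256.9 in normal lung. Every diabetic animal lay above every normal animal, as in 0.895% of all genes, although the lowest diabetic and the highest normal signal were nearly equal. The change was 0.31 (SE 0.10, unadjusted p = 0.00594, adjusted p = 0.143). The other complex I assembly factors measured were Ndufaf3 (-0.13), Ndufaf5 (-0.23), Ndufaf7 (-0.06) and Ndufaf8 (0.10).

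**Figure D2:**
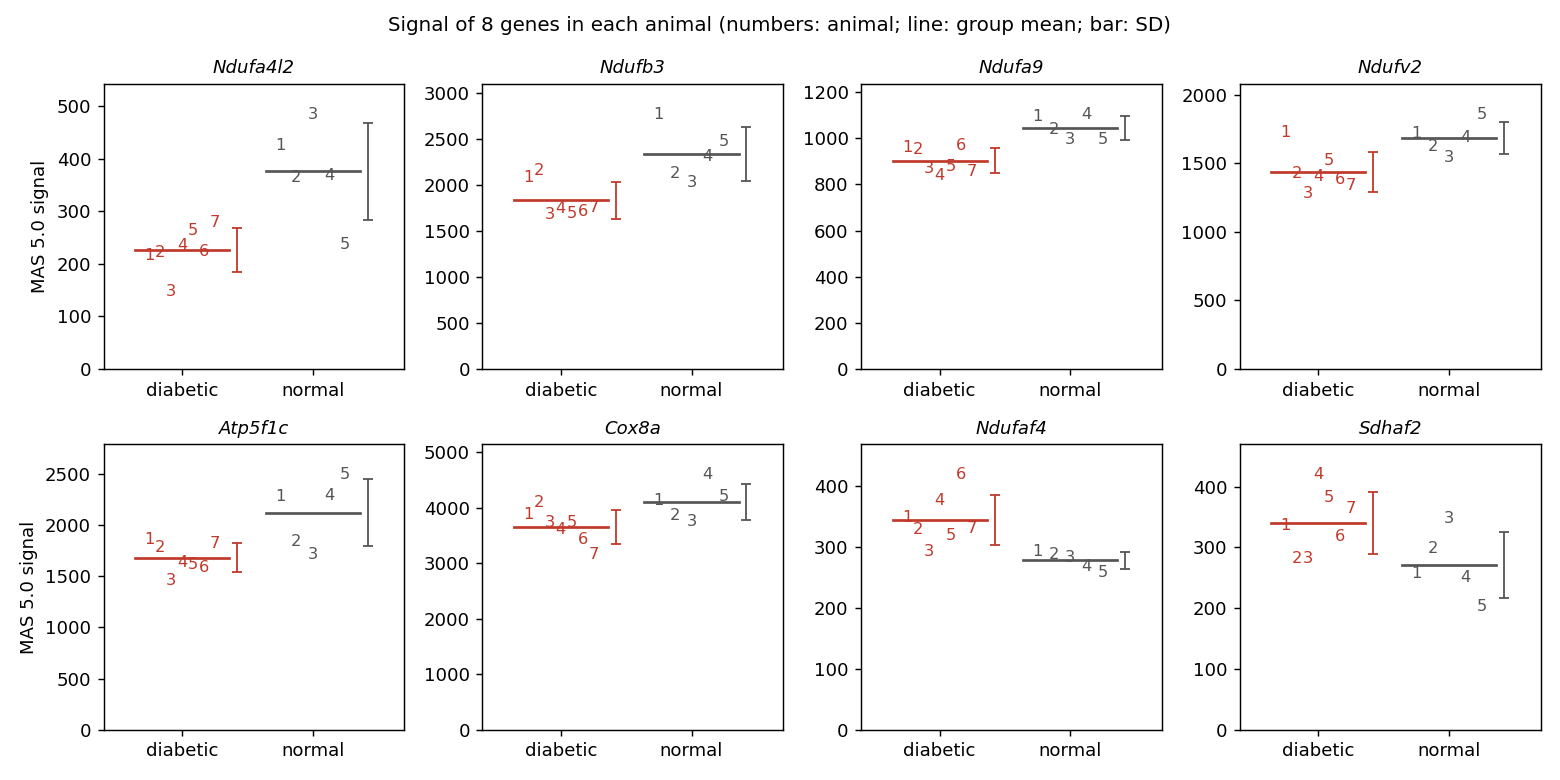
Signal (linear scale from 0) of 8 members in each of the 7 diabetic and 5 normal animals, written as the animal's number, with the group mean as a line and the SD as a bar. The groups do not overlap for Ndufa9 and Ndufaf4, and diabetic animals 1 and 2 stand at the normal level for Ndufb3 and Cox8a.

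Complex II, the succinate dehydrogenase shared with the citrate cycle, had no subunit at an unadjusted p under 0.05. With the GAPDH ratio as a covariate 2 members of complex II were lower, and 1 was with array weights, with a gene's probe sets averaged or without normal animal 1. Sdhb, the iron-sulphur subunit, averaged 1282 ± 112 (SD, n = 7) in diabetic and 1409 ± 121 (SD, n = 5) in normal lung (-0.14, 95% interval -0.31 to 0.04). Sdhd, a membrane anchor, averaged 1588 ± 146 and 1740 ± 161 in the same groups (-0.13), and a dimmer probe set of the same gene changed by -0.24 (unadjusted p = 0.0313). Sdhc, the other anchor, changed by -0.07 and Sdha, the flavoprotein, by 0.05. The change of Sdha has a 95% interval of -0.09 to 0.19.

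Among the assembly factors of complex II, Sdhaf2, which attaches the flavin to Sdha, was higher at an unadjusted p under 0.05. Its signal was 281.9, 335.5 and 419.4 (lowest, median and highest) in diabetic lung, against 256.6, 298.0, 348.5, 250 and 203.1 in normal lung (0.34, SE 0.14, unadjusted p = 0.0260, adjusted p = 0.237). Normal animals 2 and 3 lay within the diabetic range and the other normal animals below it. With the GAPDH ratio as a covariate the change was 0.13. Sdhaf4 (-0.23) and Sdhaf1 (0.11), which guard and equip the subunits before assembly, had an unadjusted p over 0.05. The change of Sdhaf4 was -0.63 with the GAPDH ratio as a covariate, -0.12 without normal animal 2 and -0.14 without normal animal 3. That of Sdhaf1 was 0.03 with the covariate and 0.05 without diabetic animal 4. Both members that were higher were thus assembly factors. Of the 73 members counted as subunits, Ndufa4l2 among them, 10 were lower at an unadjusted p under 0.05 (13.7%, against 9.11% of all genes). None was higher, against 7.48% of all genes. A change below 0 was found in 59 of the 73 (80.8%, against 53.9% of all genes) and in 4 of the 8 assembly factors (50%). Outside the name rule 15 of 19 further assembly factors had a change below 0 (78.9%).

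In complex III none of the 7 subunits caught by the name rule had an unadjusted p under 0.05 in either direction, and 4 had a change below 0 (median -0.05). The median was -0.0003 without diabetic animal 5, -0.03 without normal animal 5 and -0.08 without diabetic animal 2. All 7 were below 0 without normal animal 4, and 1 was lower at an unadjusted p under 0.05 without diabetic animal 1. Uqcrq, a small subunit of the membrane part, had the smallest p. Its signal was 1346.1, 1704.9 and 1997.9 (lowest, median and highest) in diabetic lung, against 2128.0, 1725.2, 1839.9, 1881.4 and 1878.5 in normal lung (-0.18, SE 0.09, unadjusted p = 0.0710). Diabetic animals 1 and 2 lay within the normal range and the other 5 below it. Uqcrfs1, the Rieske iron-sulphur protein that transfers the electrons, averaged 2074 ± 224 in diabetic and 2143 ± 98.1 in normal lung (-0.05, 95% interval -0.23 to 0.12). Uqcr11 changed by -0.10, the core protein Uqcrc1 by -0.08 and the hinge protein Uqcrh by 0.04. The signs of Uqcrc1 and Uqcrh turned with the GAPDH ratio as a covariate (0.045 and -0.032). Cyc1, the cytochrome c1 of complex III, falls outside the name rule and was read with the genes of electron entry. It averaged 1535 ± 157 in diabetic and 1360 ± 196 in normal lung (0.18, SE 0.10, unadjusted p = 0.0919 in limma).

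In complex IV, cytochrome c oxidase, 1 of the 12 members tested was lower at an unadjusted p under 0.05 (8.33%, against 9.11% of all genes), and 8 had a change below 0 (median -0.07). The number lower was 0 with each array centred on its median, without the intensity trend, with array weights, with the replicate number as a block, and without diabetic animal 4, 6 or 7 or normal animal 1, 4 or 5. The 1 member was Cox8a, a small subunit found in most tissues. Its signal was 3152.5, 3727.3 and 4089.4 (lowest, median and highest) in diabetic lung, against 4127.0, 3870.5, 3752.1, 4593.4 and 4210.3 in normal lung (-0.17, SE 0.08, unadjusted p = 0.0396, adjusted p = 0.278). Diabetic animals 1 and 2 lay within the normal range and the other 5 below every normal animal. With the replicate number as a block the change was -0.11, and diabetic animals 6 and 7, which have no normal animal of their number, do not bear on it. With the GAPDH ratio as a covariate the change was -0.10.

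Several complex IV subunits exist in forms of different tissues. Cox4i2 is the form of subunit 4 known from lung and from the response to low oxygen, and Cox4i1 is the general form. Cox4i2 averaged 280 ± 50 (SD, n = 7) in diabetic and 284 ± 29.3 (SD, n = 5) in normal lung (-0.04, 95% interval -0.32 to 0.24). Cox4i1 averaged 5947 ± 566 in diabetic and 5520 ± 1081 in normal lung (0.12, 95% interval -0.11 to 0.35). For neither form was a difference detectable at this number of arrays, and the sign of Cox4i2 turned (0.046) without diabetic animal 1. Cox6a1 and Cox6b1, the general forms, changed by 0.06 and -0.07, while their muscle and testis forms Cox6a2 and Cox6b2 were under the filter. Cox7a1, the form of heart and muscle, averaged 698 ± 94.2 in diabetic and 779 ± 133 in normal lung (-0.15), and its change was -0.07 without normal animal 4. Cox7a2l, which ties complexes III and IV into supercomplexes, changed by 0.14 and Cox6c by -0.09.

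Complex V was the set in which every member measured, 16 of 16, had a change below 0, with a median of -0.08. This count was 15 with each array centred on its median, with array weights, without diabetic animal 1 or without normal animal 1, and 12 with the GAPDH ratio as a covariate. Of the 16, 2 were lower at an unadjusted p under 0.05 (12.5%, against 9.11% of all genes). The number lower was 1 with each array centred on its median, without the intensity trend, with array weights, with the replicate block, in the unequal-variance test, and without diabetic animal 3, 4, 5 or 7 or normal animal 1 or 5. The 5 subunits of the catalytic head and central stalk had a median change of -0.10, and both lower members were among them. The 4 subunits of the peripheral stalk had a median of -0.06, the 6 of the membrane part -0.07, and the inhibitor Atp5if1 was at -0.08.

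Atp5f1c, the gamma subunit that turns inside the catalytic head, had the largest change of complex V. Its signal was 1461.7, 1635.3 and 1857.5 (lowest, median and highest) in diabetic lung, against 2282.3, 1842.7, 1707.7, 2287.8 and 2489.4 in normal lung. Normal animals 1, 4 and 5 lay above every diabetic animal, and normal animals 2 and 3 lay among them. The mean was 1679 ± 143 (SD, n = 7) in diabetic and 2122 ± 331 (SD, n = 5) in normal lung, a change of -0.33 (SE 0.10, unadjusted p = 0.00435, adjusted p = 0.127) that was -0.21 with array weights.

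Atp5f1d, the delta subunit of the stalk, had 1292.4, 1418.9 and 1547.5 (lowest, median and highest) in diabetic lung, against 1833.0, 1384.8, 1438.5, 1810.7 and 1613.0 in normal lung (-0.19, SE 0.08, unadjusted p = 0.0411, adjusted p = 0.283). Normal animals 2 and 3 lay among the diabetic animals. With the GAPDH ratio as a covariate the change was -0.07, and with array weights -0.12. The alpha and beta subunits, which form the catalytic sites, changed by -0.09 (Atp5f1a) and -0.04 (Atp5f1b), and Atp5f1e, the epsilon subunit, by -0.10. Atp5pb, of the peripheral stalk, changed by -0.19. Its change was -0.50 with the GAPDH ratio as a covariate, -0.05 without normal animal 5 (signal 5051.7) and -0.32 without normal animal 4 (2401.7). Atp5mc3, one of the genes of the c ring that carries the protons, averaged 3764 ± 145 in diabetic and 3972 ± 330 in normal lung (-0.07).

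A further 7 probe sets name a subunit together with a look-alike gene and were not used for the members. The one for Cox5a and a predicted gene averaged 3080 ± 389 (SD, n = 7) in diabetic and 3600 ± 280 (SD, n = 5) in normal lung (-0.23, unadjusted p = 0.0193, adjusted p = 0.209), while the dimmer probe set that names Cox5a alone, through which it is a member, averaged 226 ± 19.1 and 239 ± 16.9 in the same groups (-0.08). The shared probe set of Ndufs5 was at -0.16, those of Atp5mc1, Cox7a2 and Atp5mc2 at -0.10, -0.07 and -0.06, and those of Ndufa10 and Uqcrb at 0.01 and 0.07.

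The shift was not even over the diabetic animals. The mean over the 83 members of log2 signal minus the normal mean was 0.02, 0.01, -0.16, -0.07, -0.14, -0.07 and -0.10 in diabetic animals 1 to 7, against 0.01, -0.01, 0.00, -0.03 and 0.02 in normal animals 1 to 5. Diabetic animals 1 and 2 were thus at the normal level, and the other 5 were below the lowest normal animal. The same 5 animals were below every normal animal in complex I and in complex V. Complex I stood at 0.01, 0.00, -0.20, -0.11, -0.15, -0.07 and -0.11 in diabetic animals 1 to 7, against -0.03 to 0.02 in the normal animals. Complex V stood at 0.01, -0.01, -0.19, -0.12, -0.19, -0.07 and -0.10, against -0.05 to 0.07. In complexes II, III and IV, 1, 4 and 4 of the 7 diabetic animals were below the lowest normal animal, and the groups overlapped more. These were animal 6 in complex II, animals 3, 4, 5 and 7 in complex III, and animals 1, 3, 5 and 6 in complex IV. Diabetic animal 4 lay above every normal animal in complex IV (0.04, against at most 0.03). Over all genes tested the same mean stayed between -0.03 and 0.00 in the diabetic animals and between -0.01 and 0.01 in the normal animals. There too 5 of the 7 diabetic animals (1, 2, 3, 5 and 6) were below the lowest normal animal, which stood at -0.006.

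**Figure D3:**
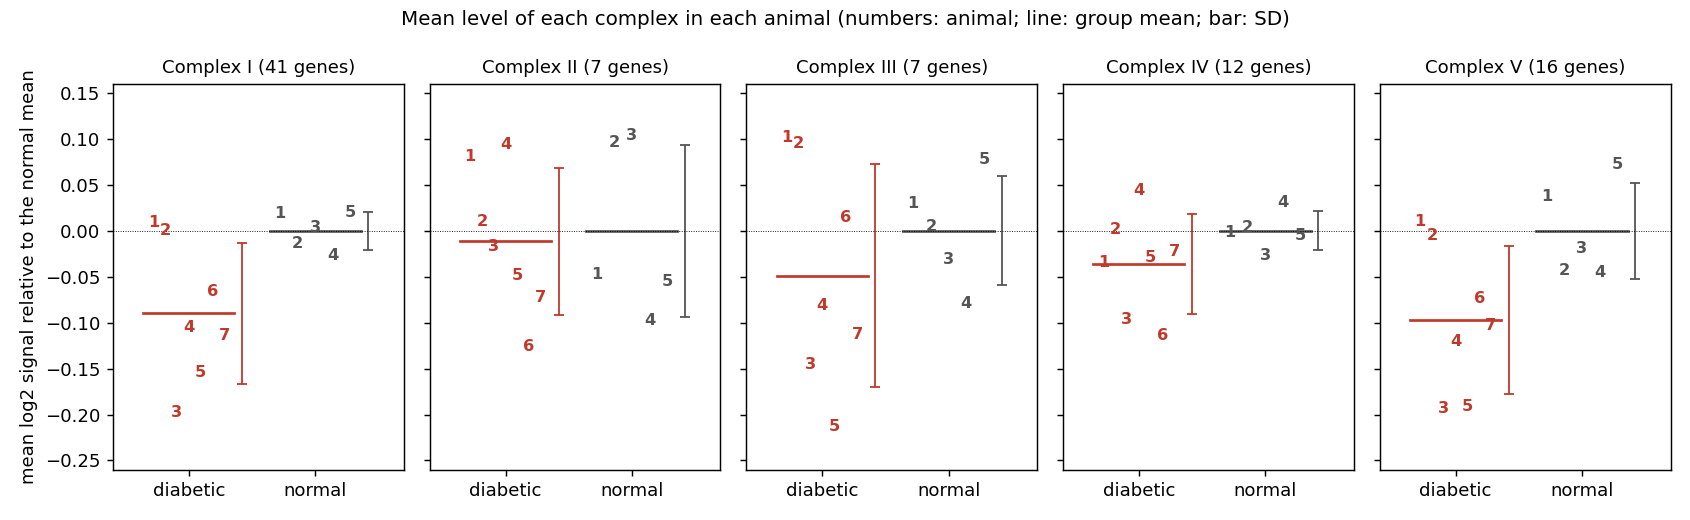
Mean log2 signal of each complex in each animal, relative to the mean of the normal animals, for 7 diabetic and 5 normal animals (numbers), with the group mean as a line and the SD as a bar. In complexes I and V diabetic animals 1 and 2 sit at the normal level near 0 and diabetic animals 3 to 7 between -0.20 and -0.07.

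Counted gene by gene, diabetic animals 1 to 7 were below the lowest normal animal for 7, 10, 40, 35, 43, 26 and 21 of the 83 members. Over all genes tested this share ran from 17.2% to 28.2% of genes per animal, while over the members it was 8.43% in diabetic animal 1, 12.0% in animal 2 and 51.8% in animal 5. Diabetic animals 1 and 2 had the highest signal of the 7 for 21 and 23 members (25.3% and 27.7%, against 14.2% and 11.2% of all genes). Diabetic animals 3 and 5 had the lowest for 19 and 26 members (22.9% and 31.3%, against 14.2% and 18.6% of all genes). These animals belong to the same labelled group, and no label separates them.

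**Figure D4:**
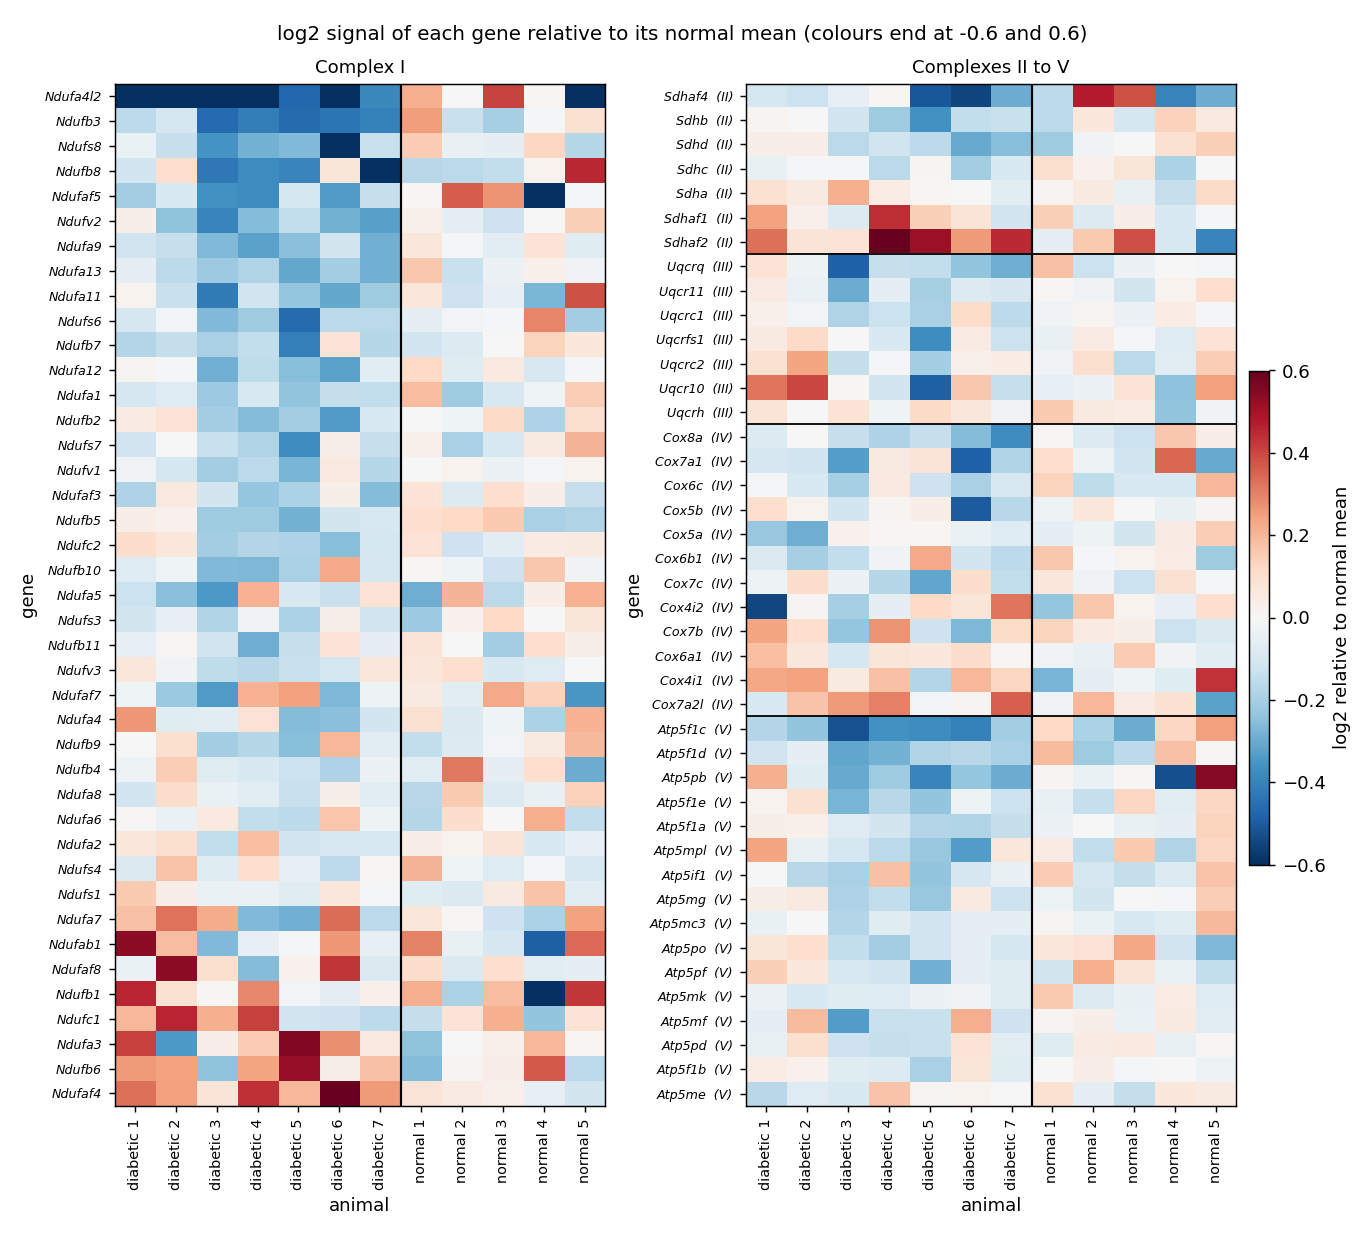
log2 signal of each of the 83 members in each animal relative to its normal mean, with diabetic animals 1 to 7 left of the line and normal animals 1 to 5 right of it. Blue, below the normal mean, is most frequent in diabetic animals 3, 4, 5 and 7, and the columns of diabetic animals 1 and 2 hold blue and red in nearly equal number (41 and 42 of 83 members below the normal mean).

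Some measures of the arrays moved with the groups, and the 3′ GAPDH signal also parted diabetic animals 1 and 2 from diabetic animals 3 to 7. For GAPDH the control probe set at the 3′ end, divided by that at the 5′ end, gave 1.15 ± 0.071 (SD, n = 7) in diabetic and 1.32 ± 0.078 (SD, n = 5) in normal lung (exact permutation test over all splits, two-sided, p = 0.00505). For beta-actin the same division gave 2.08 ± 0.372 in diabetic and 2.06 ± 0.437 in normal lung (exact permutation test, p = 0.920). The 3′ GAPDH signal was 4297 and 4365 in diabetic animals 1 and 2 and 3350 to 3748 in diabetic animals 3 to 7, against 4144 to 4542 in normal lung. The GAPDH ratio did not part these animals (1.11 and 1.13 in diabetic animals 1 and 2, 1.10 to 1.30 in 3 to 7). Nor did the 3′ beta-actin signal (15405 and 16265 in diabetic animals 1 and 2, 12355 to 15891 in 3 to 7). The part of these measures in the shift of the members was not tested beyond the covariate fits. Of the diabetic animals only animal 6 (1.30) had a GAPDH ratio within the normal range (1.23 to 1.44). The fits with this ratio as a covariate therefore cannot cleanly separate the ratio from the group. With the GAPDH ratio in the model 59 of 83 members had a change below 0 and the median was -0.07.

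Markers of lung cells were present, and 8 of 8 epithelial and vessel markers on the array passed the filter, Sftpc and Pecam1 included. Of these 8, 2 were lower at an unadjusted p under 0.05 (25%, against 9.11% of all genes), Aqp5 (-0.52) and Ager (-0.24). None was higher, and 7 had a change below 0. Of 6 alveolar type I markers 2, Aqp5 and Ager again, were lower and 1 was higher (median -0.04). Of 7 type II markers none was lower and 1 was higher (median 0.003). Of 6 endothelial markers 1 was lower (median -0.08), and of 5 airway markers none (median -0.09). Fibroblast markers had the largest median change of the marker lists. Of the 9 tested, 6 were lower (66.7%, against 9.11% of all genes) and 1 was higher at an unadjusted p under 0.05, with a median change of -0.42, and their summed signal was 12158 to 18633 in diabetic and 20843 to 22671 in normal lung. All 9 fibroblast markers passed the filter, and their part in the result was not tested. Of the 4 macrophage markers 3 had a change above 0, with a median of 0.29. Csf1r, the receptor for a growth factor of macrophages, was higher at an unadjusted p under 0.05 (0.29, unadjusted p = 0.0309), while Lyz2 was at -0.08. The summed signal of the 4 was 28051 to 36558 in diabetic and 28083 to 36358 in normal lung, and their part in the result was not tested either. All 18 cardiac muscle markers on the array, Myh6, Tnnt2 and Nppa included, were under the filter, with a summed signal of 963 to 1380 in diabetic and 1018 to 2089 in normal lung. Of the skeletal muscle markers 1 of 9 passed the filter, and of the brown adipose markers 2 of 5, with Ucp1 under it. The summed signal of 3 red cell markers was 19556 to 27721 in diabetic and 22568 to 31787 in normal lung.

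The other genes of the pathway were read from lists chosen by name, and none of them passed an adjusted p of 0.05. Over all genes tested 9.11% were lower and 7.48% higher at an unadjusted p under 0.05, and 53.9% had a change below 0. The 69 mitochondrial ribosomal proteins tested, which make the subunits encoded in mitochondrial DNA, had 11 lower (15.9%) and 2 higher (2.90%) members at an unadjusted p under 0.05, 51 changes below 0 (73.9%) and a median of -0.08. The 42 cytosolic ribosomal proteins had none lower and 6 higher (14.3%), 20 changes below 0 (47.6%) and a median of 0.01. Per animal the mean of the mitochondrial ribosomal list was -0.01 and -0.04 in diabetic animals 1 and 2 and -0.14 to -0.05 in the other 5, against -0.02 to 0.03 in normal lung. Mrpl17 averaged 1404 ± 241 in diabetic and 1772 ± 108 in normal lung (-0.35, unadjusted p = 0.00514), and Mrpl1 went the other way (0.35, unadjusted p = 0.00343).

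The 15 citrate cycle genes tested were split, with 3 lower and 3 higher (20% each) and a median of -0.03. Pdhx, a structural part of pyruvate dehydrogenase, was higher (0.49, unadjusted p = 0.000526), as was citrate synthase, Cs (0.22), and Idh3g, a subunit of isocitrate dehydrogenase, was lower (-0.20). Of the carriers and porins 1 of 9 was lower (11.1%, close to the share of all genes), the adenine nucleotide carrier Slc25a4, which exchanges ATP for ADP across the inner membrane (2404 ± 154 in diabetic and 2939 ± 290 in normal lung, -0.29, unadjusted p = 0.00168), and 1 was higher, the creatine kinase Ckmt1 (0.39). Of 20 genes of protein import and quality control 3 were lower (15%) and 1 higher, with Tomm70, a receptor for carrier proteins on the outer membrane, at -0.32 (unadjusted p = 0.000409). Of 9 genes of mitochondrial biogenesis 1, Esrra, the receptor ERR alpha, was lower (11.1%, again close to the share of all genes). Its signal was 157 ± 30.8 in diabetic and 208 ± 39.8 in normal lung (-0.41, unadjusted p = 0.0193). The diabetic mean lay under the signal of the filter (170.0), so Esrra passed only through the higher normal signals. Tfam was at 0.20 and the coactivator Ppargc1a was under the filter.

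Of 19 assembly factors of the chain outside the name rule 2 were lower, near the share of all genes (Uqcc2 at -0.33 and Oxa1l at -0.16), and none higher. A change below 0 was found in 15 of these 19 (78.9%, against 53.9% of all genes). The 10 genes of electron entry and the mobile carriers had none lower and 1 higher, Coq8a (0.36). Its signal was 210 ± 47.6 in diabetic and 162 ± 32.6 in normal lung. The normal mean lay under the signal of the filter (170.0), so Coq8a passed only through the higher diabetic signals. None of the 9 genes of mitochondrial oxidant defence had an unadjusted p under 0.05 in limma. Of 10 targets of the response to low oxygen tested, 2 are also members, Ndufa4l2 and Cox4i2. A change below 0 was found in 8 of the 10 (80%, against 53.9% of all genes). Ndufa4l2 was lower (10%, against 9.11% of all genes). Pfkfb3, which speeds glycolysis, was higher (0.40, unadjusted p = 0.0325 in limma), which is 10%, against 7.48% of all genes. Slc2a1 was at -0.19, Bnip3 at 0.33 and Vegfa at -0.17, while Ldha and Pdk1 were both at -0.02.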

How the data were processed

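Each lung was measured on an Affymetrix RAE 230A array of its own. The authors made a signal for each probe set with MAS5, as the submitters' processing notes name it, and the deposited values are intensities on a linear scale. On each array their mean without the lowest and highest 2% came to 500.1. They were used as deposited, with 1 value at or below 0 replaced by 0.1, and transformed to log2. Genes were named through the platform annotation, updated by Entrez ID.

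Left out were 57 control probe sets and, of the others, the 40% dimmest by mean log2 signal. For the remaining 9520 the test was limma 3.58.1 under R 4.3.3 (lmFit, then eBayes with trend, two-sided), with Benjamini-Hochberg adjustment. Measures of the arrays were compared by exact permutation over every split of the animals. The fit was tested on simulated data. At an adjusted p under 0.05 it recovered 10% of 1.25-fold, 67.5% of 1.5-fold and 94.5% of 2-fold changes there. Promoter words were counted on both strands. Those of NRF1 and YY1 were cut to 9 letters after longer forms had been counted, which raised their shares in members and in all promoters and brought YY1 matches into complex V, where the longer form had none. Alternatives covered scaling, the filter, a pseudocount of 10.5, no variance trend, weights for the arrays, a replicate block, the 3′ to 5′ ratios as covariates, an unequal-variance test, averaging a gene's probe sets, the choice of members and each animal left out.

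The members and lists were chosen with earlier results of these data known. Named by rule were members past the adjusted threshold, the 5 of smallest p in each complex, members with tissue forms, members whose groups do not overlap or that were filtered out, and up to 3 genes of smallest p in other lists. Ndufa13, Ndufs6, Ndufs8 and the other genes named to complete a group were chosen after their values were seen. How precise a value can be is limited by the number of arrays. BAMarray, the Bayesian method of the study, and the present and absent calls were not used here.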

Additional observations from a re-analysis of the deposited data

Results flagged for a closer look

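For 3 genes 1 animal stood far from the rest of its group, with a gap to the nearest animal that took up more than the critical share of the group's range. Of 72 groups of animals examined 3 were picked out in this way (4.17%), and chance picks out about 1 in 20. Cox6b1 had a signal of 3677.7 in diabetic animal 5, against 2737.7 to 3104.1 in the other 6 diabetic animals. Cox6a1 had 2273.8 in normal animal 3, against 1957.8 to 2020.1 in the other 4. Atp5f1a had 3055.6 in normal animal 5, against 2688.7 to 2785.0 in the other 4. None of these 3 genes had an unadjusted p under 0.05 in limma, and without the animal concerned the change of each kept its sign.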

How the results depend on the processing

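The number of members past an adjusted p of 0.05, 0 in the reported fit, was 1 with array weights (Ndufa4l2, -0.75) and 0 under the other alternatives run. The 10 members lower at an unadjusted p under 0.05 numbered 7 to 12 under the other settings and 7 to 13 with 1 animal left out. The 2 higher members numbered 1 with array weights, with the GAPDH ratio as a covariate, in the unequal-variance test and with the replicate number as a block, and 0 with the lowest 60% left out or without assembly factors and associated proteins. With 1 animal left out they numbered 1 to 3, with 1 left without diabetic animal 4 or normal animal 1. Members with a change below 0 numbered 55 to 66 (55 of 72 with the lowest 60% left out) and 62 to 69 with 1 animal left out, and their median stayed between -0.09 and -0.05. Signs turned for Uqcrc1 (0.045) and Uqcrh (-0.032) with the GAPDH ratio as a covariate. With 1 animal left out Uqcrh ranged from -0.016 (without normal animal 4) to 0.083, and Cox4i2 from -0.098 to 0.046 (without diabetic animal 1), with 0.0017 without normal animal 2. The cause was not tested. With the replicate block 9 members were lower, 1 was higher and none passed the adjusted threshold. Diabetic animals 6 and 7 have no normal animal of their number, so the changes of this fit rest on the other diabetic animals. The labels name no pairing by number, and animals of the same number did not deviate together (r of -0.12 to 0.04 over 5 pairs). So few pairs cannot exclude a shared handling by number. Centring each array on its median moved the median of all genes by 0.03 and quantile normalization by 0.01. The number of arrays and the dimness of Ndufa4l2 limit these values.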
